A study of Caenorhabditis elegans with 32 samples.

Results

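The 10 genes described here encode Argonaute proteins of Caenorhabditis elegans: alg-1, alg-2, rde-1, ergo-1, alg-3, alg-4, prg-1, csr-1, wago-1 and hrde-1. They were chosen by name from the Argonaute family, and all 10 were found among the 46748 genes of the count table. Of the 10, all were tested in total RNA and 9 in ribosome-bound RNA, where alg-4 had too few reads.

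Argonautes are proteins that carry a small RNA and use it as a guide to find RNAs with a matching sequence. In worms the family is large, and its branches are told apart by the small RNA they carry: microRNAs, which tune translation and mRNA stability in somatic tissues; primary small RNAs made from double-stranded RNA or from dedicated loci such as the piRNAs; and secondary small RNAs, which are copied from the targeted transcript by RNA-dependent RNA polymerases and amplify silencing. Many of the branches act in the germline, where they silence foreign and repetitive sequence, protect expressed genes and pass silencing on to the progeny.

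All 16 libraries came from the strain WBM1339, which carries FLAG-tagged ribosomal subunits and was labelled as the muscle experiment. Synchronized L1 larvae were placed on control bacteria (empty vector, EV) or on bacteria producing double-stranded RNA against dimt-1, the 18S rRNA methyltransferase gene, and young adults were collected. For each RNAi, 4 biological replicates gave RNA from immunoprecipitated ribosomes (translating ribosome affinity purification, TRAP), and whole-worm lysates gave total RNA, so that there were 4 groups of 4 libraries. The strain's tagging construct and its promoter are not given in the sources used here. Whether replicates came from separate cultures is not stated, so the p-values measure only the spread between these samples, which may be technical.

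Each library held 34794250 to 49782576 counts in total. CPM stands for counts relative to library size, here with library sizes scaled by the trimmed mean of M-values (TMM) over the 16 libraries. The 12 muscle markers summed to 4809 to 6357 CPM in total RNA and to 157375 to 227164 CPM in TRAP, and all 12 were higher in TRAP on either RNAi, with none at 0. The targeted gene, dimt-1, was measured at 23.1, 25.8, 25.2 and 22.8 CPM in total RNA on EV and at 16.6, 19.7, 24.2 and 15.1 CPM in replicates 1 to 4 on dimt-1 RNAi (log2 fold change -0.33, SE 0.12, edgeR adjusted p = 0.228). The total RNA library labelled dimt-1 RNAi replicate 3 therefore lay within the EV range for the targeted gene, and on the first principal component of total RNA it lay at -11.7, among the EV libraries at -11.8 to -9.24, while the other dimt-1 RNAi libraries lay at 9.88 to 24.97. In TRAP, dimt-1 was at 23.3, 10.8, 13.6 and 15.9 CPM on EV and at 19.6, 21.0, 16.02 and 33.9 CPM on dimt-1 RNAi, which is no decrease. Results that rest on replicate 3 of dimt-1 RNAi are therefore given with and without it. Replicate 3 was singled out on these same data, so p-values without it can be too small and serve as descriptions.

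Since Argonaute genes have close relatives, the coding sequences were compared for stretches in which a read would not tell 2 members apart. Alg-3 and alg-4 were identical at 91.6% of 3105 aligned coding bases, alg-1 and alg-2 at 78.5% of 2715 bases, and wago-1 and hrde-1 at 61.5% of 2626 bases; the other pairs were not aligned. Over all pairs of members the longest identical run was 52 bases, between alg-3 and alg-4, followed by 26 bases between alg-1 and alg-2, and no pair shared a window of 100 bases. These 4 stretches are shown because they set how well the reads separate each pair; the shared run is in capitals and the flanking bases are in lower case.
alg-3: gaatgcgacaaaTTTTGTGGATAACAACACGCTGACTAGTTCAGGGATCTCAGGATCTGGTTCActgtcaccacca
alg-4: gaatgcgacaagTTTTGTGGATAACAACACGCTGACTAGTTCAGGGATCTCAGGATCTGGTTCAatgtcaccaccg
alg-1: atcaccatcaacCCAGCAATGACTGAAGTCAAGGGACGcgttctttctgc
alg-2: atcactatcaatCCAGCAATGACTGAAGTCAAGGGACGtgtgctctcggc
The alg-3 stretch is coding bases 12 to 87 on the plus strand at chrIV:11704376-11704725 and the alg-4 stretch is coding bases 12 to 87 on the minus strand at chrIII:9890758-9891320, each read across an intron. The alg-1 stretch lies within 1 exon at chrX:13953215-13953264 and the alg-2 stretch within 1 exon at chrII:876400-876449, both on the plus strand. The sequences are those of the RefSeq WBcel235 genome. Reads from the shared alg-3 and alg-4 run can be split between these genes, so values of the pair are less certain than those of the other members.

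The 10 genes lie on chromosomes I (prg-1 and wago-1), II (alg-2), III (alg-4 and hrde-1), IV (alg-3 and csr-1), V (rde-1 and ergo-1) and X (alg-1) in the WBcel235 genome. Exons of ergo-1 overlap pei-2 and exons of prg-1 overlap D2030.12 on the opposite strand, and exons of csr-1 overlap frpr-10 and those of alg-1 a small nucleolar RNA gene on the same strand. The strand setting used for counting is not given in the sources used here, so reads of these overlaps may belong to either gene.

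Wago-1 and hrde-1, which carry secondary small RNAs, were the most abundant members per length in total RNA, and the spermatogenic pair the least. In total RNA on EV, wago-1 was at 141 ± 2.36 CPM per kb of exon (SD, n = 4) and hrde-1 at 118 ± 1.90 CPM per kb. They were followed by prg-1 at 61.7 ± 2.40, csr-1 at 40.7 ± 3.67, ergo-1 at 39.3 ± 0.890, alg-2 at 17.4 ± 0.683 and rde-1 at 16.4 ± 1.0998 CPM per kb. Alg-1 was at 3.46 ± 0.199 CPM per kb, and alg-4 and alg-3 were at 0.393 ± 0.136 and 0.348 ± 0.120 CPM per kb. Of neighbours in this order, csr-1 and ergo-1, alg-2 and rde-1, and alg-4 and alg-3 overlapped in their ranges over the 4 libraries; the other neighbours did not. The annotated exons of alg-1 sum to 6696 bases against 3069 coding bases, and per kb of coding sequence alg-1 stood at 7.55 CPM, still between rde-1 at 17.2 and alg-4 at 0.436. In TRAP on EV the order of means was the same down to alg-1, from 83.0 ± 16.8 CPM per kb for wago-1 to 3.00 ± 0.404 for alg-1. Ranges there overlapped for wago-1 (64.2 to 105.1) and hrde-1 (53.3 to 73.1). They also overlapped for prg-1 and csr-1, csr-1 and ergo-1, and ergo-1 and alg-2. In TRAP on dimt-1 RNAi, hrde-1 at 95.4 ± 7.92 and wago-1 at 92.1 ± 6.55 CPM per kb overlapped.

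**Figure D1:**
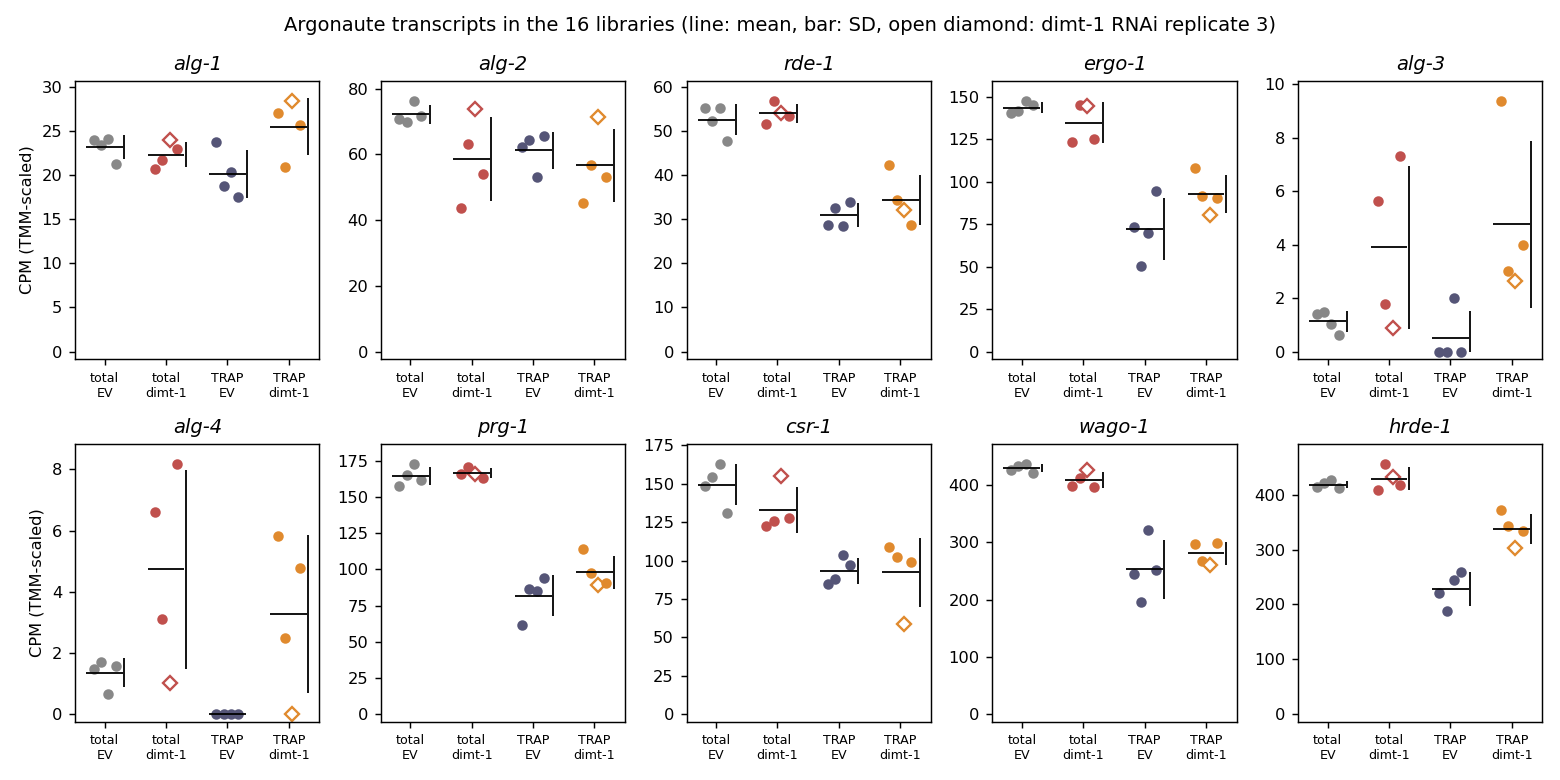
Each panel plots 1 Argonaute gene, with CPM on TMM-scaled library size on the y axis and the 4 groups on the x axis; points are libraries, lines are means, bars are SD cut at 0 and open diamonds are dimt-1 RNAi replicate 3. In hrde-1 the 4 TRAP libraries on dimt-1 RNAi (303 to 371 CPM) sit above the 4 on EV (189 to 259 CPM), and in alg-3 and alg-4 the open diamond in total RNA sits with the EV points.

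The first comparison asked which Argonaute transcripts differed between dimt-1 RNAi and EV in whole-worm total RNA. With all 8 libraries, edgeR's quasi-likelihood test called 0 of the 10 members, against 0% of the 15441 genes tested; 3 members and 2504 genes had an unadjusted p under 0.05. The members with the largest differences were alg-3 and alg-4, the Argonautes of spermatogenic small RNAs, with log2 fold changes of 1.84 (SE 0.57, adjusted p = 0.161) and 1.86 (SE 0.53, adjusted p = 0.144). Alg-2, a microRNA Argonaute, was at -0.26 (SE 0.11, adjusted p = 0.277). The other 7 members lay between -0.13 for csr-1 and 0.08 for rde-1. The median of the 10 was 0.02, beside 0.01 over all genes tested.

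Alg-3 had 1.42, 1.48, 1.03 and 0.628 CPM in replicates 1 to 4 on EV and 5.61, 1.79, 0.891 and 7.30 CPM on dimt-1 RNAi. Replicates 1 and 4 on dimt-1 RNAi were several times higher than any EV library, replicate 2 was just above them and replicate 3 was inside their range. Alg-4 had 1.48, 1.72, 0.669 and 1.57 CPM on EV and 6.62, 3.13, 1.03 and 8.19 CPM on dimt-1 RNAi, in the same order of libraries. These are low levels, from 40 to 492 reads of alg-3 and from 52 to 554 reads of alg-4 in a total RNA library. Without replicate 3 of dimt-1 RNAi, alg-3 was at a log2 fold change of 2.17 (SE 0.41, edgeR adjusted p = 0.00173). Alg-4 was at 2.20 (SE 0.35, edgeR adjusted p = 0.00046). That library was left out after these data were seen, so both p-values can be too small.

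Alg-2 showed the opposite direction, with 70.8, 69.9, 76.3 and 71.8 CPM on EV and 43.8, 63.3, 73.7 and 53.9 CPM on dimt-1 RNAi. Only the library labelled replicate 3 was inside the EV range. Without it, in a fit chosen on these data, alg-2 was at -0.38 on the log2 scale (SE 0.09, edgeR adjusted p = 0.00878). Alg-1, the other main microRNA Argonaute, had 21.2 to 24.2 CPM on EV and 20.7 to 23.9 CPM on dimt-1 RNAi, so its groups overlapped. The ratio of alg-2 to alg-1 reads was 3.12 ± 0.192 on EV and 2.61 ± 0.456 on dimt-1 RNAi (SD, n = 4; exact two-sided permutation p = 0.114, adjusted p = 0.165 over 36 ratio tests). It was 2.12, 2.91, 3.08 and 2.34 in replicates 1 to 4 on dimt-1 RNAi against 2.96 to 3.38 on EV, so that only replicate 3 lay inside the EV range; the ratio was not tested without it.

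Intestine and embryo markers moved with alg-2 in total RNA. The 8 intestine markers summed to 17538 to 20551 CPM on EV and to 11713, 12661, 19594 and 14724 CPM in replicates 1 to 4 on dimt-1 RNAi, with replicate 3 again the one inside the EV range. With all libraries 0 of the 8 had a log2 fold change above 0 (median -0.29) and 0 were called, and none was at 0 in any total RNA library. The part of the intestine markers in the alg-2 values was not tested.

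Csr-1, which binds germline-expressed transcripts, also had replicate 3 apart from the other dimt-1 RNAi libraries. It had 149, 155, 163 and 131 CPM on EV and 122, 126, 155 and 128 CPM on dimt-1 RNAi, so that replicate 3 again stood with the EV libraries. Its log2 fold change without replicate 3 was -0.20 (SE 0.07, edgeR adjusted p = 0.0648), which did not pass the test. The other members showed little difference either way: prg-1, wago-1, hrde-1, rde-1, ergo-1 and alg-1 were between -0.08 and 0.09 without replicate 3, with SE of 0.05 to 0.09.

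Without replicate 3 of dimt-1 RNAi the test therefore called 3 of 10 members. Of these, 2 were higher, against 6.99% of 15845 genes higher, and 1 lower, against 8.03% of the genes. Leaving out any other replicate gave 0 members and 0 genes called. The tool also changed the count with all libraries kept: DESeq2 called alg-3 and alg-4 (adjusted p = 0.0218 and 0.0115) among 659 genes, and limma voom with library quality weights called alg-2 and alg-4 (adjusted p = 0.0225 and 0.0289) among 1601 genes.

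**Figure D2:**
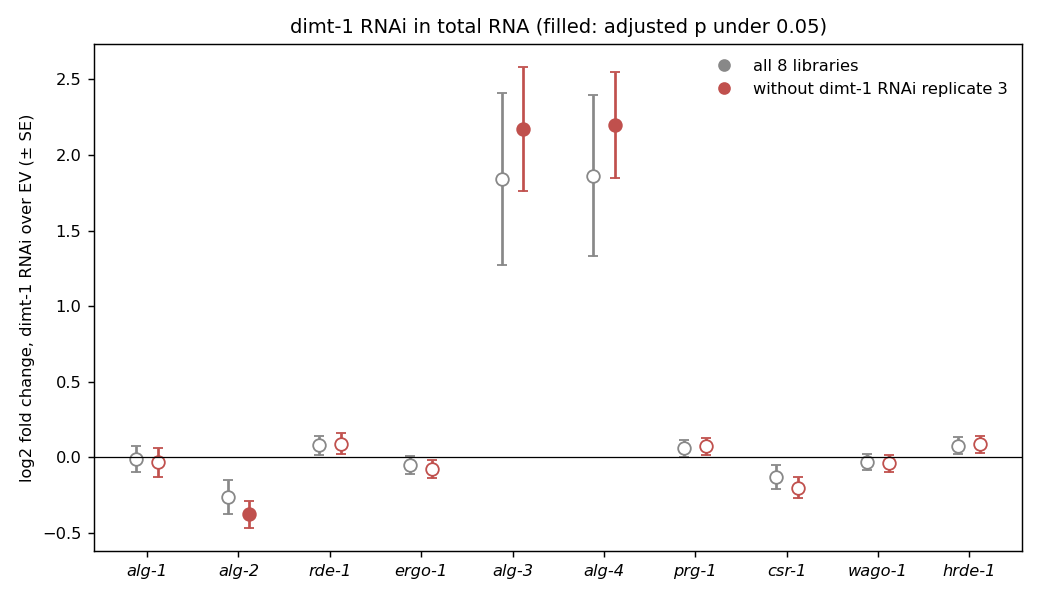
The y axis is the log2 fold change of dimt-1 RNAi over EV in total RNA with its SE, and the x axis lists the 10 members; grey is the fit on all 8 libraries, red the fit without dimt-1 RNAi replicate 3, and filled points have an adjusted p under 0.05. Filled points are the red ones of alg-2 (-0.38), alg-3 (2.17) and alg-4 (2.20).

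Markers of sperm moved with the spermatogenic pair. The 18 sperm markers summed to 55.2, 51.2, 46.3 and 59.5 CPM in total RNA on EV and to 157, 93.9, 52.2 and 168 CPM in replicates 1 to 4 on dimt-1 RNAi. Replicate 3 was again inside the EV range and the order of the dimt-1 RNAi libraries was that of alg-3 and alg-4. Of the 17 sperm markers tested, 0 were called with all libraries (edgeR; 10 at an unadjusted p under 0.05, 4 called by DESeq2 and 6 by limma voom; median log2 fold change 1.42) and 10 were called higher without replicate 3 (median 1.68). In total RNA up to 2 of the 18 were at 0 in a library, and none was at 0 in all 4 libraries of a group. More cells of a type and more RNA per cell cannot be told apart in these bulk samples. The part of the sperm markers in the alg-3 and alg-4 values was not tested. Germline markers differed less: the 10 summed to 3352 to 3546 CPM on EV and to 3192 to 3579 CPM on dimt-1 RNAi, with none at 0.

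**Figure D3:**
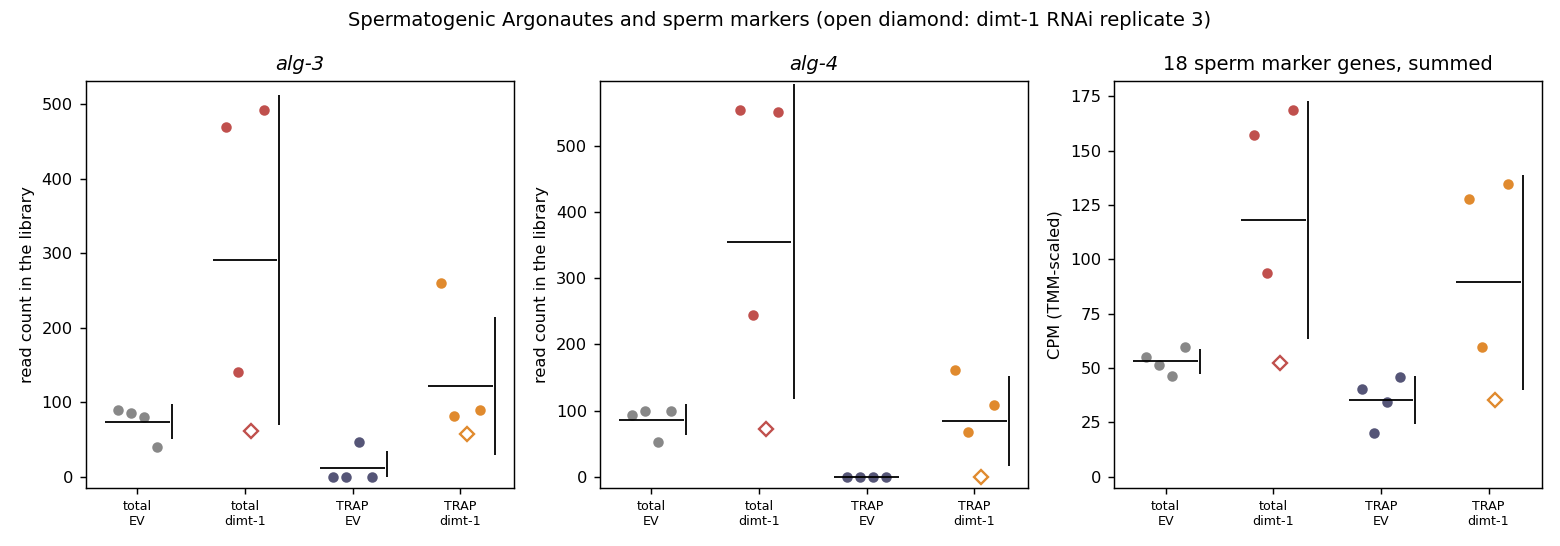
The left and middle panels plot read counts of alg-3 and alg-4 per library and the right panel the summed CPM of 18 sperm markers, by group on the x axis; lines are means, bars SD cut at 0, and open diamonds dimt-1 RNAi replicate 3. In total RNA the open diamonds (62 reads of alg-3, 72 reads of alg-4, 52.2 CPM of sperm markers) lie with the EV libraries, and alg-4 is at 0 in all 4 TRAP libraries on EV.

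The genes whose levels followed the pair most closely over the 8 total RNA libraries included sperm genes. By Pearson's r of log2 CPM among 7951 genes, the nearest to alg-4 were nsph-4.2 (r = 0.998), gsp-4 (r = 0.989) and R10E4.7 (r = 0.989); gsp-4, a sperm protein phosphatase gene, is also among the 18 markers. The nearest to alg-3 were F45F2.9 (r = 0.985), msp-36 (r = 0.982) and mig-6 (r = 0.977), of which msp-36 belongs to the major sperm proteins. Alg-3 and alg-4 had r = 0.907 with each other. Nearest to alg-2 was lact-4 (r = 0.987) and nearest to csr-1 was C26B9.5 (r = 0.985). Nearest to ergo-1, hrde-1, prg-1, wago-1, rde-1 and alg-1 were C18E9.2 (r = 0.979), skn-1 (r = 0.971), dph-3 (r = 0.970), mmcm-1 (r = 0.964), znf-236 (r = 0.943) and R07B7.8 (r = 0.935). These values are descriptions over 8 libraries that share depth and RNAi, and the highest of that many values is high by selection.

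The second comparison set ribosome-bound RNA from the muscle TRAP beside whole-worm total RNA. On EV, edgeR's quasi-likelihood test called 7 of the 10 members lower in TRAP and 0 higher, against 21.9% of 13778 genes lower. These 7 were rde-1, ergo-1, alg-4, prg-1, csr-1, wago-1 and hrde-1. The members alg-1 and alg-2, which carry microRNAs, stayed within 0.24 of 0 on the log2 scale. On dimt-1 RNAi the test called 6 members lower and 0 higher, against 10.9% of 14785 genes lower, and these 6 were also among the 7 of EV. The median of the 10 members was -0.82 on EV and -0.52 on dimt-1 RNAi, beside -0.26 and -0.14 over all genes tested.

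Alg-1 and alg-2, the microRNA Argonautes among the members, were not called on either RNAi with TMM scaling. This holds for these members only: alg-5, an Argonaute outside the members, was called lower in TRAP on EV (log2 fold change -1.48, SE 0.16). Alg-2 had 62.2, 64.3, 53.1 and 65.7 CPM in TRAP on EV, against 69.9 to 76.3 CPM in total RNA (log2 fold change -0.24, SE 0.10, edgeR adjusted p = 0.0756). Alg-1 had 23.8, 18.8, 20.3 and 17.5 CPM, overlapping with total RNA (-0.21, SE 0.16, adjusted p = 0.371). On dimt-1 RNAi alg-1 was at 0.19 (SE 0.15, adjusted p = 0.422) and alg-2 at -0.05 (SE 0.18, adjusted p = 0.907). The 2 genes were 0.05 and 0.02 above the median of all genes on EV, and 0.33 and 0.09 above it on dimt-1 RNAi.

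Rde-1 and ergo-1, which carry primary small RNAs of the exogenous and endogenous RNAi pathways, were lower in TRAP on both RNAi. Rde-1 had 28.5 to 34.0 CPM in TRAP against 47.8 to 55.4 CPM in total RNA on EV (log2 fold change -0.77, SE 0.11, edgeR adjusted p = 0.000363). Ergo-1 had 50.3 to 94.7 CPM against 140.3 to 148 CPM (-0.997, SE 0.16, adjusted p = 0.000786). On dimt-1 RNAi the values were -0.65 (SE 0.13, adjusted p = 0.00278) for rde-1 and -0.54 (SE 0.12, adjusted p = 0.00477) for ergo-1. The ergo-1 call was lost when dimt-1 RNAi replicate 2 was left out (adjusted p = 0.0502).

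Prg-1, the Argonaute of piRNAs, was close to ergo-1 in the size of its fall on EV. It had 158, 165, 173 and 162 CPM in total RNA on EV and 61.7, 86.5, 84.9 and 94.1 CPM in TRAP, which is 2.01-fold lower (log2 fold change -1.01, SE 0.12, edgeR adjusted p = 0.000106). On dimt-1 RNAi it had 166, 171, 166 and 163 CPM in total RNA and 114, 97.8, 89.1 and 90.7 CPM in TRAP, or 1.70-fold lower (-0.76, SE 0.11, adjusted p = 0.000182). Csr-1 was 1.60-fold lower in TRAP on EV (-0.68, SE 0.10, adjusted p = 0.000333) and at -0.52 on dimt-1 RNAi (SE 0.18, adjusted p = 0.0477). In that group csr-1 in TRAP had 109, 102, 58.9 and 99.2 CPM, with replicate 3 far below the others. The csr-1 call on dimt-1 RNAi did not hold with the replicate number as a block (adjusted p = 0.0581) or without any 1 of the 4 replicates (adjusted p of 0.0603 to 0.131, the lowest without replicate 3, where the log2 fold change was -0.28).

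Wago-1 and hrde-1, which carry secondary small RNAs and act in germline and inherited silencing, were lower in TRAP as well. On EV wago-1 was at 196 to 321 CPM in TRAP against 421 to 437 CPM in total RNA (log2 fold change -0.76, SE 0.13, edgeR adjusted p = 0.00104). Hrde-1 was at 189 to 259 CPM against 412 to 426 CPM (-0.88, SE 0.10, adjusted p = 5.5e-05). On dimt-1 RNAi wago-1 was at -0.53 (SE 0.10, adjusted p = 0.00203) and hrde-1 at -0.34 (SE 0.11, adjusted p = 0.0335). The hrde-1 call on dimt-1 RNAi was lost without any 1 of the 4 replicates (adjusted p of 0.0801 to 0.141).

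Alg-4 had no read in any of the 4 TRAP libraries on EV, against 52 to 100 reads in total RNA. A count of 0 was given a limit of 3 counts over the group. With it, alg-4 was 45.6-fold lower in TRAP than in total RNA on EV. The edgeR adjusted p was 0.00286. This limit covers counting error only and not the spread between libraries, so the value is not a lower bound on the difference. If mates of a read pair were counted separately, the limit in fragments would be looser and the value lower. Such zeros were not confined to alg-4. Of 1634 genes within 1.5-fold of its total RNA level, 8.20% were at 0 in all 4 of these libraries and 32.8% in at least 3. Alg-3 had 0, 0, 46 and 0 reads in TRAP on EV and was not called (log2 fold change -1.18, SE 1.84, adjusted p = 0.714), and 40.0% of 1678 genes of its level were at 0 in at least 3 of the libraries. Without EV replicate 3 alg-3 was at 0 in every TRAP library left and was called lower (adjusted p = 0.00845). Of the 18 sperm markers, fer-1, spe-4, spe-8, spe-9, spe-12 and spe-38 were at 0 in all 4 TRAP libraries on EV, and the 18 summed to 20.004 to 45.8 CPM there. Of the marker lists of other tissues, unc-31 of neurons, bli-1 and wrt-2 of the hypodermis and end-3 of the embryo were also at 0 in all 4 of these libraries.

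**Figure D4:**
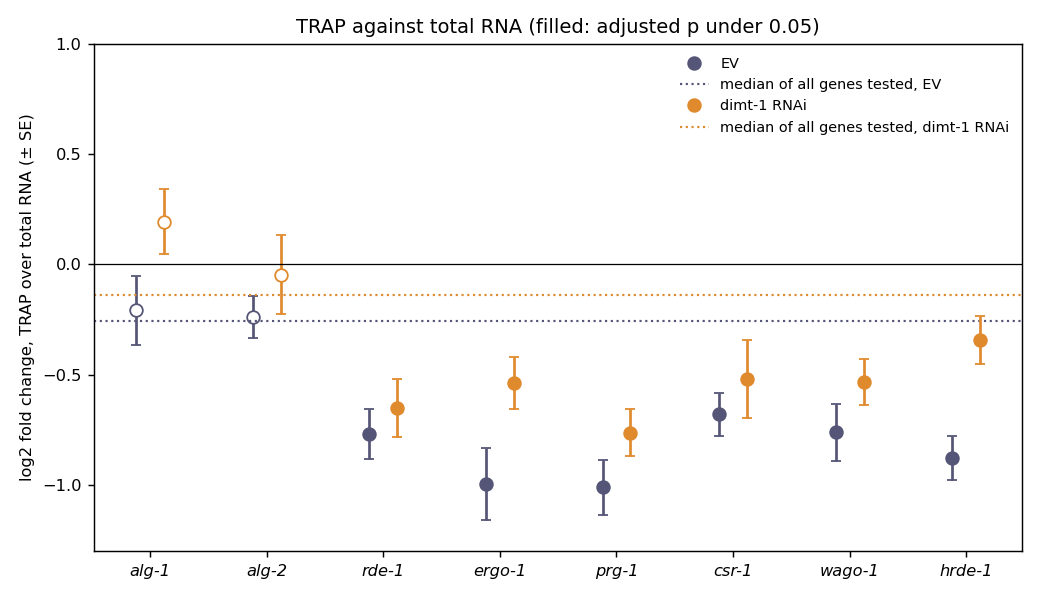
The y axis is the log2 fold change of TRAP over total RNA with its SE on TMM scaling, the x axis lists 8 members, colours are the 2 RNAi, filled points have an adjusted p under 0.05 and dotted lines are medians of all genes tested (-0.26 on EV, -0.14 on dimt-1 RNAi). Alg-1 and alg-2 lie at or above the dotted lines and the other 6 below them; alg-3 and alg-4 are left out because of their zeros.

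The size of these differences depends on the scaling. With library size only, the median of all genes moved from -0.26 to -1.68 on EV and from -0.14 to -1.56 on dimt-1 RNAi, and 9 and 8 members were called lower, with alg-1 and alg-2 added on each RNAi. Relative to the median of all genes, the 6 members rde-1, ergo-1, prg-1, csr-1, wago-1 and hrde-1 were at -0.75 to -0.42 on EV with TMM and at -0.76 to -0.42 with library size only. Markers of the germline moved in the same direction: 9 of 10 were called lower in TRAP on EV (median log2 fold change -1.04) and 8 of 10 on dimt-1 RNAi (median -0.80). Their sum was 1393 to 1927 CPM in TRAP on EV and 1498 to 2216 CPM in TRAP on dimt-1 RNAi, against 3192 to 3579 CPM in total RNA, and none was at 0. Oocyte markers were called lower in 8 of 8 on either RNAi. The part of germline and oocyte RNA in the member values was not tested.

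The third comparison asked whether ribosome-bound levels in TRAP differed between dimt-1 RNAi and EV. EdgeR's quasi-likelihood test called 0 of the 9 members tested, against 0% of 12164 genes; 1 member and 976 genes had an unadjusted p under 0.05. That member was hrde-1, with 220.2, 189, 244 and 259 CPM on EV and 371, 342, 303 and 333 CPM on dimt-1 RNAi, or 1.46-fold higher (log2 fold change 0.55, SE 0.15, adjusted p = 0.292). All 4 dimt-1 RNAi libraries of hrde-1 were above all 4 EV libraries, as was so for 4.85% of the genes tested. Alg-3 passed the filter on low counts through its dimt-1 RNAi group, so its separation is given without a count, with 0, 0, 46 and 0 reads on EV and 260, 82, 58 and 90 reads on dimt-1 RNAi (3.21, SE 1.80, adjusted p = 0.718). Oocyte markers moved with hrde-1 in TRAP: the 8 summed to 2270 to 2658 CPM on EV and to 2788 to 3348 CPM on dimt-1 RNAi, without overlap and with none at 0. Of these 8, all had a log2 fold change above 0 (median 0.30), and of the 10 germline markers 9 did (median 0.19), with 0 called in either list. Other lists went the other way. Of muscle markers 2 of 12 were above 0 (median -0.27), of intestine markers 1 of 8 (median -0.63) and of neuron markers 2 of 8 (median -0.19), with 0 called. The part of all these markers in the hrde-1 values was not tested.

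The other members in TRAP overlapped between RNAi groups. Alg-4 was not tested; it had 0 reads in all 4 EV libraries and 162, 68, 0 and 108 reads on dimt-1 RNAi, where replicate 3 was the library at 0. Against the same limit of 3 counts over the EV group, its mean on dimt-1 RNAi was 110.0-fold higher. This value is not a lower bound either, and it would also be lower in fragments. Zeros differed between these groups over all genes: 35106 to 36257 genes were at 0 in each TRAP library on EV, 30820 to 31518 in replicates 1, 2 and 4 on dimt-1 RNAi and 36218 in replicate 3. Of genes within 1.5-fold of the level of alg-4 in total RNA, 8.20% were at 0 in all 4 TRAP libraries on EV. On dimt-1 RNAi it was 0%. The part of this difference in the alg-4 value was not tested. The sperm markers in TRAP summed to 128, 59.8, 35.3 and 135 CPM in replicates 1 to 4 on dimt-1 RNAi, and replicate 3, with 10 of the 18 at 0, was inside the EV range. Ergo-1, alg-1 and prg-1 were at 0.34 (SE 0.19), 0.33 (SE 0.23) and 0.24 (SE 0.17), and wago-1, rde-1, csr-1 and alg-2 were between -0.13 and 0.13. DESeq2 called hrde-1 (adjusted p = 0.017) among 164 genes, and limma voom with quality weights called 0 members among 128 genes. Without replicate 3 of dimt-1 RNAi 0 of 10 members were called by edgeR, and hrde-1 was at 0.60 (SE 0.14, adjusted p = 0.0955). Over the fits that each left out 1 replicate the adjusted p of hrde-1 was 0.0955 to 0.793.

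Hrde-1 was also set against its relative wago-1 within the same libraries, as a ratio that needs no scaling. There were 0.971 to 0.978 hrde-1 reads per wago-1 read in total RNA on EV and 1.02 to 1.11 on dimt-1 RNAi. In TRAP there were 0.761 to 1.03 on EV and 1.11 to 1.28 on dimt-1 RNAi. The RNAi groups did not overlap in either fraction, and each difference had an exact two-sided permutation p of 0.0286, the smallest that 4 against 4 allows. This held against wago-1 only. Hrde-1 to prg-1 overlapped between the RNAi groups in both fractions (exact permutation p = 0.543 in total RNA and 0.114 in TRAP). Hrde-1 to alg-1 and alg-2 summed overlapped as well (exact permutation p = 0.0571 and 0.0857). How often pairs of other genes separate as hrde-1 and wago-1 did was not tested. None of the 36 ratio tests passed after adjustment (the lowest adjusted p, also that of hrde-1 to wago-1 between RNAi groups, was 0.0935).

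**Figure D5:**
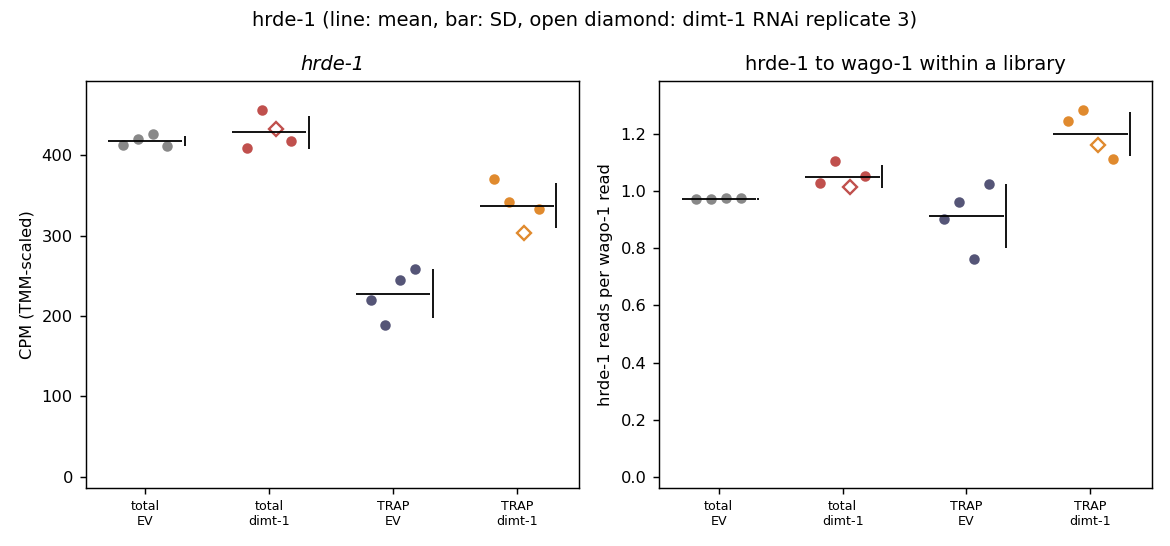
The left panel plots hrde-1 CPM on TMM-scaled library size and the right panel hrde-1 reads per wago-1 read, by group on the x axis; points are libraries, lines means, bars SD and open diamonds dimt-1 RNAi replicate 3. In TRAP the 4 dimt-1 RNAi libraries (1.11 to 1.28 reads per read) lie above the 4 EV libraries (0.761 to 1.03).

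The fourth comparison tested whether the TRAP to total ratio, used as translation efficiency, differed between RNAi groups, as the interaction of fraction and RNAi over 16 libraries. EdgeR's quasi-likelihood test called 0 of 10 members, against 0% of 15897 genes; 3 members and 2183 genes had an unadjusted p under 0.05, and 1973 of these genes were higher. These were hrde-1 (0.53, SE 0.15, adjusted p = 0.161), ergo-1 (0.46, SE 0.21, adjusted p = 0.329) and alg-4 (adjusted p = 0.157), whose fitted value rests on the zeros in TRAP on EV. The members had a median of 0.32 beside 0.16 over all genes tested. Relative to the median of all genes, rde-1 was at -0.047 and csr-1 at -0.007. With DESeq2's size factors the median was 0.18 for the members and 0.02 for all genes. The estimate of rde-1 fell below 0 with DESeq2 or its size factors. Without replicate 3 of dimt-1 RNAi hrde-1 was at 0.58 (SE 0.15, adjusted p = 0.068) and was not called. The edgeR adjusted p of alg-4 was 0.035 in that fit and that of DESeq2 on all libraries was 0.0113; both rest on the zeros on EV, and leaving out replicate 3 also removes the only TRAP library on dimt-1 RNAi in which alg-4 was at 0. Since the TRAP libraries are labelled muscle and the total RNA libraries whole-worm lysates, translation efficiency and the share of RNA from other tissues cannot be told apart in this ratio. The germline markers had a median interaction of 0.25, the oocyte markers of 0.36 and the muscle markers of -0.32.

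Of 68 other genes of the small RNA pathways, 67 were tested, and in total RNA and in TRAP 0 were called between dimt-1 RNAi and EV, as in the interaction (edgeR; 8, 7 and 8 at an unadjusted p under 0.05). DESeq2 called 0 in all of these, and limma voom called 1 higher and 5 lower in total RNA and 0 otherwise. Between TRAP and total RNA, 39 were called lower and 1 higher on EV, beside 21.9% of all genes lower, and 23 lower and 1 higher on dimt-1 RNAi, beside 10.9% lower. Without replicate 3 the latter were 33 and 1, where 2180 of 15153 genes were lower. The counts of each list below are to be read against the same shares. Among other Argonautes 4 of 9 were lower on either RNAi, including wago-4, which acts in inherited silencing, at -1.15 (SE 0.20) on EV and -0.998 (SE 0.14) on dimt-1 RNAi, alg-5, at -1.48 (SE 0.16) on EV, and ppw-1, at -0.91 (SE 0.17) on dimt-1 RNAi. Of the list of Dicer partners and RNA-dependent RNA polymerases 6 of 12 were lower on EV and 2 on dimt-1 RNAi, with ego-1, the germline polymerase, at -1.02 (SE 0.11) and -0.92 (SE 0.18) and eri-5 at -1.29 (SE 0.24) and -0.63 (SE 0.19). Nearly all pathway genes called between fractions were thus lower in TRAP.

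The Mutator factors, which amplify secondary small RNAs, were lower in 5 of 8 on EV and 3 of 8 on dimt-1 RNAi. Mut-2, a nucleotidyltransferase, was at -1.07 (SE 0.13) and -0.66 (SE 0.16), while rde-2 was at -0.82 (SE 0.25) on EV and mut-14 at -0.66 (SE 0.14) on dimt-1 RNAi. Of the list of piRNA production 7 of 12 and 3 of 12 were lower. Snpc-4, which binds piRNA loci, was at -1.03 (SE 0.23) and -0.56 (SE 0.10). Tofu-4 was at -1.41 (SE 0.46) on EV and tofu-5 at -0.72 (SE 0.17) on dimt-1 RNAi. All calls in both lists were lower in TRAP.

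Nuclear RNAi and inheritance genes were lower in 7 of 9 and 4 of 9. The inheritance factor hrde-2 was at -1.61 (SE 0.50) and -1.54 (SE 0.23), and the helicase gene znfx-1 at -1.53 (SE 0.21) and -1.24 (SE 0.30). Of the microRNA list 6 of 8 and 3 of 8 were lower; nhl-2, a cofactor of microRNA silencing, was at -2.17 (SE 0.14) and -1.54 (SE 0.19) and the RNA helicase gene cgh-1 at -1.10 (SE 0.10) and -0.82 (SE 0.18). Since cgh-1 is also among the germline markers, it is counted in both lists. Of the genes of double-stranded RNA uptake and amplification 4 of 9 were lower on either RNAi, with rde-12 at -0.86 (SE 0.14) and -0.83 (SE 0.14), rsd-2 at -0.82 (SE 0.11) on EV and rde-11 at -0.61 (SE 0.18) on dimt-1 RNAi. The gene called higher in TRAP was sid-5, which is needed for the spread of silencing between cells, at 1.93 (SE 0.20) and 1.64 (SE 0.34).

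Without replicate 3 of dimt-1 RNAi, 3 of the 67 pathway genes were called higher and 6 lower in total RNA, against the 6.99% and 8.03% of all genes given above. The Argonautes ppw-2 (log2 fold change 0.36, SE 0.07) and ppw-1 (0.29, SE 0.09) and the Dicer partner eri-5 (0.36, SE 0.11) were higher. Nrde-3 (-0.36, SE 0.10), a somatic nuclear Argonaute, was lower. So was ain-1 (-0.42, SE 0.09), a GW182 relative that acts with alg-1 and alg-2. In the list of piRNA production tost-1 (-0.38, SE 0.08) and erh-2 (-0.42, SE 0.09) were lower. Met-2 (-0.26, SE 0.07) and sid-3 (-0.30, SE 0.08) were lower as well.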

How the data were processed

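The authors deposited raw counts per gene from polyA RNA libraries (TruSeq Stranded mRNA) of the 16 muscle samples, without normalization; the submitters' processing notes name STAR 2.7.2b. The study's methods give mapping to WBcel235 and counting with STAR after describing the germline experiment; whether the muscle libraries were treated alike, and the strand setting, are not given in the sources used here. The 16 germline samples of the series were not analysed here, and 0 columns of the table were left unused. Between 78.1 and 90.0% of counts from 1 to 20 were even, a pattern that counting mates of a read pair separately would give, so fragments may be fewer than counts. No libraries were duplicates: each pair differed at 11856 genes or more.

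The members and gene lists were chosen with earlier results of these data known. Named were the members, dimt-1, up to 2 called genes per pathway list, direction and comparison with the largest change, and the genes nearest in pattern (average log2 CPM of at least 3, prior count 2). The 9 pathway genes called without replicate 3 and the marker genes listed at 0 were named after their values were seen. A few names of the lists (prg-2, wago-2, wago-11, tofu-3 and pics-1) matched no row; prg-2 and wago-2 are close relatives of prg-1 and wago-1, and sharing of reads with them was not tested.

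Each comparison was fitted on all genes with edgeR 4.0.16 (filterByExpr, TMM, glmQLFit, glmQLFTest) in R 4.3.3, on the groups compared, with Benjamini-Hochberg adjustment and calls at an adjusted p under 0.05; the SE is the log2 fold change divided by the square root of F. The scripts were tested on simulated data. Alternatives were DESeq2's size factors, library size only, at least 10 counts in every library, DESeq2 1.42.0, limma 3.58.1 voom with library quality weights, the replicate number as a block, the lysate as a block for the interaction, and leaving out each replicate of 1 RNAi. Between total RNA and TRAP on dimt-1 RNAi, deviations from the group means of libraries with the same number correlated at 0.147 to 0.419. Replicates 1, 3 and 4 correlated best with their own number, but replicate 2 correlated best with number 1. The numbers thus paired most but not all of these libraries. On EV, libraries with the same number correlated at 0.0143 to 0.0764. Between RNAi groups they correlated at -0.209 to 0.0389 in total RNA and -0.0873 to -0.00662 in TRAP. Positions come from the Ensembl annotation and sequences from the RefSeq genome of WBcel235.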

Additional observations from a re-analysis of the deposited data

Results flagged for a closer look

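In groups of 4 libraries, a library was singled out when its gap to the nearest other library, divided by the range of the group, exceeded Dixon's critical value. Of 39 tests over the members, 2 did so, where chance gives about 1 in 20. Alg-3 in TRAP on EV was at 2.01 CPM (46 reads) in replicate 3 and at 0 in the others. With the others at 0 the gap equals the range whatever the count. This flag thus follows from the zeros, and the chance rate does not apply to it. Csr-1 in total RNA on dimt-1 RNAi was at 155 CPM in replicate 3, against 122 to 128 CPM in the others; this is the library that lay among the EV libraries on the first principal component. Of the 10 interaction tests of fraction and RNAi, 0 passed after adjustment.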

How the results depend on the processing

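Members called. Between dimt-1 RNAi and EV in total RNA, 0 members were called, 2 with DESeq2, 2 with limma voom and 0 to 3 when 1 replicate was left out, the 3 without dimt-1 RNAi replicate 3. In TRAP it was 0, with 1 under DESeq2 and 0 in every fit without 1 replicate. For TRAP against total RNA on dimt-1 RNAi it was 6, with 3 to 4 when 1 replicate was left out. For the interaction it was 0, with 1 under DESeq2 and 0 to 1 when 1 replicate was left out. For TRAP against total RNA on EV it was 7, with 6 to 9 over the settings.

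With the replicate number as a block, 5 members were called between TRAP and total RNA on dimt-1 RNAi (csr-1 was lost) and 0 for the other comparisons with 0; it changed no other call there. On EV, where the numbers did not pair the libraries, the block gave 6 members (alg-4 at an adjusted p of 0.0695).

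Genes called. In total RNA the 0 genes became 659 with DESeq2, 1601 with limma voom, 1 with the block and 0 to 2379 without 1 replicate; in TRAP, 164, 128, 8 with at least 10 counts in every library, and 0 to 49. For the interaction, the 0 genes became 330 with DESeq2, 9 with library size only and 0 to 46. Between TRAP and total RNA, the 5437 genes on EV became 8461 with library size only, and the split changed from 2422 higher and 3015 lower to 1205 and 7256; the 4162 genes on dimt-1 RNAi became 8852, from 2547 and 1615 to 1202 and 7650. With DESeq2's size factors the split on EV was 2596 higher and 2536 lower. Leaving out 1 replicate gave 5088 to 5526 genes on EV and 2837 to 5139 on dimt-1 RNAi.

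Estimates that changed sign were small or uncalled in the main fit, except where the scaling moved all genes. With library size only these were alg-1 (0.0219) and wago-1 (0.00431) under dimt-1 RNAi in total RNA, csr-1 (0.0702) in TRAP, and alg-1 (-1.22) and alg-3 (-1.12) between TRAP and total RNA on dimt-1 RNAi. Csr-1 in TRAP was 0.0917 with limma voom, and rde-1 in the interaction was -0.0299 with DESeq2 and -0.0307 with its size factors. Without 1 replicate, alg-1 in total RNA ranged from -0.0564 to 0.00585, csr-1 in TRAP from -0.131 to 0.134, alg-3 between TRAP and total RNA on dimt-1 RNAi from -0.0865 to 0.855, and in the interaction rde-1 from -0.0918 to 0.207 and csr-1 from -0.0383 to 0.404. The causes were not tested. Depth limits alg-3 and alg-4 most, with 0 to 554 reads per library.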
